A study of Bos taurus with 4 samples.

Results

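LPL, CD36, FABP3 and FABP4, 4 genes that act in the uptake of lipid from blood and in the binding of fatty acids inside cells, were followed across 4 bovine RNA-seq libraries. They were chosen by Ensembl identifier, from what the genes are known to do, but with earlier results of these data known. They are LPL (ENSBTAG00000012855), CD36 (ENSBTAG00000017866), FABP3 (ENSBTAG00000016819) and FABP4 (ENSBTAG00000037526). All 4 identifiers were found among the 24616 gene rows of the deposited table. The libraries came from Holstein cattle. Of these, 2 are mammary tissue labelled female and 2 are lymphocytes labelled male. Sex follows tissue throughout, and a difference between tissues cannot be told apart from a difference between sexes. The labels give no age, stage of lactation, sorting marker or treatment, and separate animals are not stated for either tissue. Both mammary titles carry the word "dup", which is not explained, and no lymphocyte title does. The labelled tissues could not be checked against marker genes, because the table gives identifiers only and 0 of them were paired with a symbol by the RefSeq gene table at hand.

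Milk fat is made partly from fatty acids that the mammary gland takes from blood. Lipoprotein lipase, the product of LPL, is held at the wall of capillaries, where it cleaves the triglyceride of circulating lipoproteins and frees fatty acids. CD36 is a membrane protein that helps long-chain fatty acids enter cells, and it is also a known component of the membrane around milk fat globules. Inside the cell, small soluble fatty acid binding proteins carry the fatty acids to where they are used. FABP3, the heart-type form, is abundant in heart muscle and in the lactating mammary gland, and FABP4, the adipocyte form, is abundant in fat cells and is also made by capillary endothelium.

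Values are FPKM, fragments scaled to transcript length and to library size, so the levels of different genes can be set side by side within a library. Between 15844 and 17953 rows were above 0 in a library, and the summed FPKM ran from 828745 to 1536182. The number of fragments behind a value is unknown. In bulk tissue, fewer cells of a type and less RNA per cell cannot be told apart.

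The 2 uptake genes were both far higher in mammary tissue than in lymphocytes, and in both the higher mammary value was that of replicate 2. The LPL level was 17.4 FPKM in mammary replicate 1 and 524.2 FPKM in mammary replicate 2, against 0.23 and 1.51 FPKM in lymphocyte replicates 1 and 2. The groups did not overlap, although the mammary libraries differed 30.2-fold from each other and the lymphocyte libraries 6.42-fold. The nearest pair of libraries across tissues, mammary replicate 1 and lymphocyte replicate 2, differed 11.5-fold. The farthest pair, mammary replicate 2 and lymphocyte replicate 1, differed 2233-fold, so the size of the LPL difference is known only as a wide range.

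The CD36 level was 55.9 FPKM in mammary replicate 1 and 403.9 FPKM in mammary replicate 2, against 0.0219 and 0.0178 FPKM in lymphocyte replicates 1 and 2. The lymphocyte libraries were thus almost empty of CD36 and close to each other, while the mammary libraries differed 7.23-fold. Each mammary value was at least 2551 times the higher lymphocyte value. Ratios this large rest on lymphocyte values near 0, for which the counting error is unknown.

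The 2 binding genes behaved differently from each other. The FABP4 level was 140.2 FPKM in mammary replicate 1 and 149.5 FPKM in mammary replicate 2, and FABP4 was listed at 0 in both lymphocyte libraries. Its mammary values differed by a factor of 1.07, the smallest gap between mammary replicates among the 4 genes on the deposited scale. No fold difference is given against a group at 0, and an exact 0 in this kind of table can also be a failed estimate. The zeros are also written differently, as 0.000000 in lymphocyte replicate 1 and 0.0 in lymphocyte replicate 2, which is not explained. Of the 12311 rows tested for a difference between tissues, 268 (2.18%) were listed at 0 in both lymphocyte libraries. Testing required 1 FPKM in 2 or more libraries, so such a row could enter only through both of its mammary values. Nothing about FABP4 is therefore read from this share. Of the 268 rows, 2, FABP4 among them, reached 100 FPKM in each mammary library. That cut lies not far below the FABP4 values, and a row at 92.0 and 88.9 FPKM missed it.

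The FABP3 level was 16.9 FPKM in mammary replicate 1 and 1735 FPKM in mammary replicate 2, against 17.1 and 38.1 FPKM in lymphocyte replicates 1 and 2. Among the 4 genes, FABP3 alone had tissues that overlapped. Mammary replicate 1 lay just below the lower lymphocyte library, by a factor of 1.01, and below the higher by a factor of 2.26. Mammary replicate 2 lay 45.5-fold and 102-fold above the lymphocyte libraries. Among the tested rows, 11.6% had their mammary libraries on both sides of the lymphocyte libraries in this way. FABP3 was also the sole gene of the 4 above 10 FPKM in lymphocytes, where it ranked 2856th and 1566th of all rows in replicates 1 and 2.

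**Figure D1:**
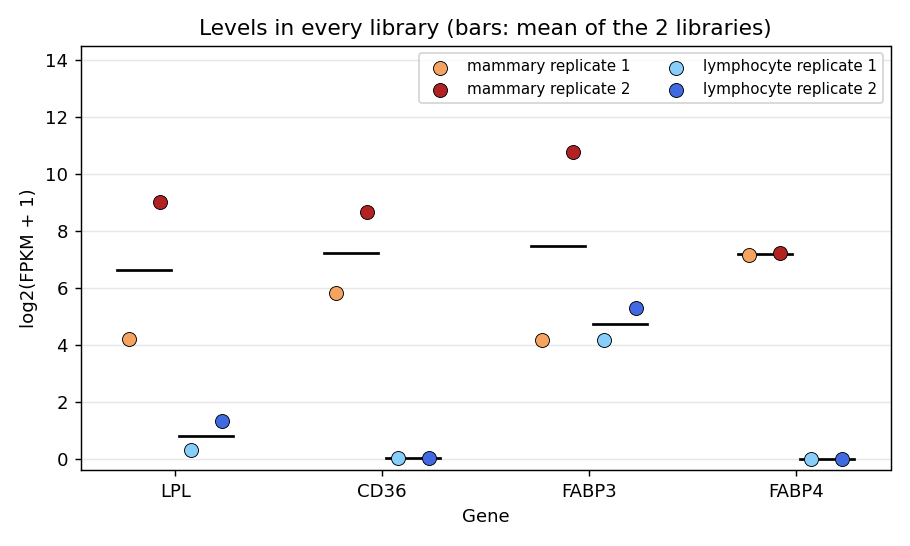
Level of LPL, CD36, FABP3 and FABP4 in each of the 4 libraries, as log2(FPKM + 1) on the vertical axis, with a bar at the mean of the 2 libraries of a tissue. The tissues stand apart for LPL, CD36 and FABP4, with FABP4 at 0 in both lymphocyte libraries, while the FABP3 value of mammary replicate 1 lies level with lymphocyte replicate 1.

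The difference between tissues was tested by limma on log2(FPKM + 1), with p-values adjusted by Benjamini-Hochberg over 12311 rows, those that reached 1 FPKM in 2 or more libraries. All 4 genes passed the filter. CD36 and FABP4 did so through their mammary values alone, LPL needed at least 1 of them, and FABP3 was above the minimum in every library. A difference on this scale understates the change of a low gene. CD36 was higher in mammary tissue by 7.22 (SE 0.86, n = 2 libraries per tissue, limma adjusted p = 2.7e-14). FABP4 was higher by 7.19 (SE 0.86, limma adjusted p = 3.4e-14), a value that depends on the 1 added to its zeros. LPL was higher by 5.80 (SE 0.86, limma adjusted p = 3.4e-09), and FABP3 by 2.73 (SE 0.88, limma adjusted p = 0.014).

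In this fit 8.54% of the tested rows passed in the mammary direction and 19.2% in either direction. CD36 and FABP4 could enter the tested set only by being high in mammary tissue, so nothing is read from setting the count of 4 against these shares. Without the filter on low rows, 1 of the 4 genes passed, FABP4 (limma adjusted p = 0.041), where 0.0207% of 19337 rows passed in the mammary direction. The median tested row was itself lower in mammary tissue, at -0.81. Relative to that median row the differences were 6.61 for LPL, 8.03 for CD36, 3.54 for FABP3 and 8.00 for FABP4. Complete separation with mammary tissue higher, seen for LPL, CD36 and FABP4, was found in 13.7% of the tested rows, a share under the same filter.

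The calls for FABP3 and LPL did not hold up in the fits to all 4 libraries where their own replicate spread counted, and that of CD36 held in only some of these. The fit gave every gene the spread typical of its level, 0.86 to 0.88 on the log2 scale for these genes, whereas the spread between replicates was 3.35 for FABP3, 2.47 for LPL, 1.42 for CD36 and 0.046 for FABP4. After median-of-ratios scaling, which brings the median row to 0.04, limma let each gene's own spread count. CD36 and FABP4 then passed, with differences of 7.78 (SE 1.45, limma adjusted p = 0.033) and 7.74 (SE 0.54, limma adjusted p = 0.0084). LPL, at 6.58 (SE 2.15, limma adjusted p = 0.10), and FABP3, at 3.79 (SE 2.75, limma adjusted p = 0.37), did not pass. The fit without the filter, on the deposited scale, also let the own spread count, and there CD36 missed the threshold as well, with its difference unchanged at 7.22 (SE 0.99, limma adjusted p = 0.089). After scaling, 12.8% of the tested rows passed in the mammary direction.

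Mammary replicate 2 alone set the direction of FABP3. Without it the FABP3 difference was -0.57 (limma adjusted p = 0.66), and without mammary replicate 1 it was 6.03 (limma adjusted p = 0.011). LPL moved from 3.38 without mammary replicate 2 to 8.22 without mammary replicate 1, and passed both times (limma adjusted p = 0.028 and 0.0032). LPL missed the threshold without lymphocyte replicate 1, at 5.29 (limma adjusted p = 0.067), and FABP3 missed it without either lymphocyte library, at 2.17 and 3.29 (limma adjusted p = 0.73 and 0.56). The share of tested rows called in the mammary direction was 8.72% without mammary replicate 1 and 9.64% without mammary replicate 2, and 0.301% and 0.357% without lymphocyte replicates 1 and 2. In each of these fits the tissue left with 1 library was assumed to have the spread of the other tissue. The CD36 difference moved between 5.80 and 8.63 as each library was left out and that of FABP4 between 7.14 and 7.23. Leaving out a lymphocyte library could hardly move either, as the lymphocyte values were near 0 for CD36 and at 0 for FABP4. Without a mammary library, the replicate spread came from the lymphocyte values alone, 0.72 for LPL, 0.79 for FABP3, 0.0041 for CD36 and 0 for FABP4. The wide gap between the mammary values of LPL and FABP3 thus did not enter these fits as spread. A pass in these fits on the deposited scale thus says little about how stable CD36 and FABP4 are. With median-of-ratios scaling, both were lost without lymphocyte replicate 1 (limma adjusted p = 0.13 for CD36 and 0.087 for FABP4) and without lymphocyte replicate 2 (0.12 and 0.073), fits in which limma called 0 rows, with 2820 and 2967 below 0.05 before adjustment. With 2 libraries per tissue, no exact permutation test can give a two-sided p below 0.33.

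**Figure D2:**
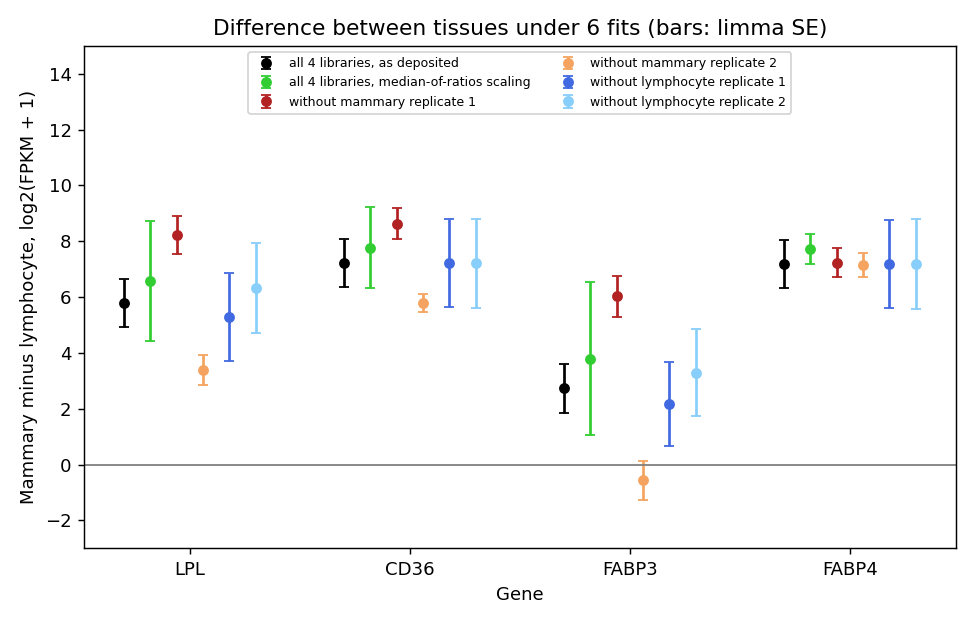
Difference between mammary tissue and lymphocytes in log2(FPKM + 1) for each gene, under the fit to all 4 libraries as deposited, the same after median-of-ratios scaling, and 4 fits that leave out 1 library each; bars are limma standard errors. FABP4, listed at 0 in both lymphocyte libraries, stays between 7.14 and 7.74 in these fits, all of which add 1 to FPKM. With 0.1 or 5 added instead, not drawn here, its difference was 10.5 or 4.90. FABP3 runs from -0.57 without mammary replicate 2 to 6.03 without mammary replicate 1.

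The order of the genes by level was opposite in the mammary libraries. In mammary replicate 1 it ran FABP4, CD36, LPL and FABP3 from high to low, and in mammary replicate 2 it ran FABP3, LPL, CD36 and FABP4. LPL and FABP3 were at nearly the same level in mammary replicate 1, a ratio of 1.03, so the place of these neighbours there is not firm. Ratios of FPKM within a library do not depend on how libraries are scaled. FABP4 exceeded FABP3 8.30-fold in mammary replicate 1, and FABP3 exceeded FABP4 11.6-fold in mammary replicate 2. FABP4 likewise exceeded CD36 2.51-fold and LPL 8.08-fold in mammary replicate 1, whereas in mammary replicate 2 CD36 exceeded FABP4 2.70-fold and LPL exceeded it 3.51-fold. The uptake genes changed places as well: CD36 exceeded LPL 3.22-fold in mammary replicate 1, and LPL exceeded CD36 1.30-fold in mammary replicate 2. In both lymphocyte libraries the order was FABP3, LPL, CD36 and FABP4, the order of mammary replicate 2, but with FABP3 72.8-fold and 25.3-fold above LPL.

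The summed FPKM of the 4 genes was 230.3 in mammary replicate 1, 2813 in mammary replicate 2, and 17.3 and 39.7 in lymphocyte replicates 1 and 2. FABP4 made up 60.9% of that sum in mammary replicate 1 and 5.32% in mammary replicate 2. FABP3 made up 7.33% and 61.7%, and took 98.5% and 96.2% in lymphocyte replicates 1 and 2. These are shares of FPKM, which is per length, and not shares of fragments.

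**Figure D3:**
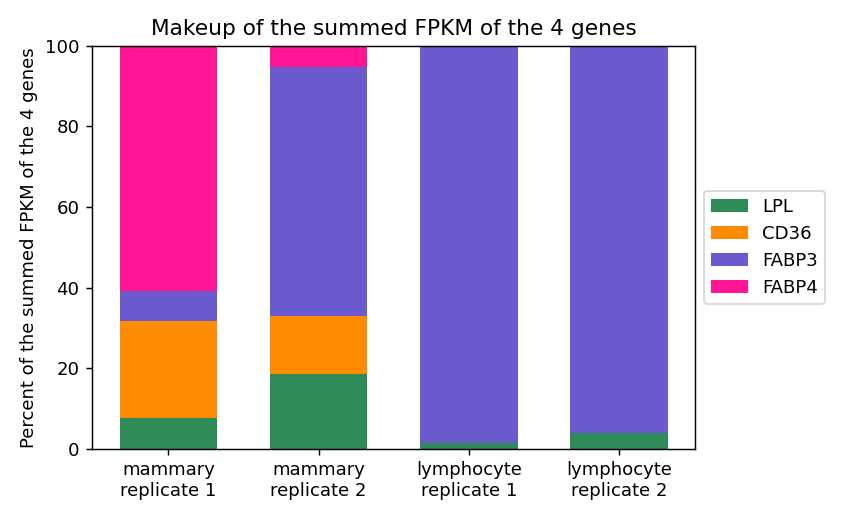
Share of each gene in the summed FPKM of LPL, CD36, FABP3 and FABP4, in percent, for each of the 4 libraries. FABP4 holds 60.9% in mammary replicate 1, and FABP3 holds 61.7% in mammary replicate 2 and over 96% in each lymphocyte library.

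Within the libraries, the rank of each gene among all 24616 rows showed the same shift. FABP3 ranked 2562nd in mammary replicate 1 and 30th in mammary replicate 2, and LPL ranked 2486th and 63rd. CD36 ranked 669th and 84th. FABP4 moved least, from 307th to 200th. In units of the median row at 1 FPKM or more of the same library, FABP3 stood at 2.52 and 480.1 times that row in mammary replicates 1 and 2, LPL at 2.59 and 145.0 times, CD36 at 8.33 and 111.7 times, and FABP4 at 20.9 and 41.4 times. The near equality of the FABP4 values therefore holds for FPKM as deposited. After median-of-ratios scaling FABP4 was at 127.5 and 352.5 in mammary replicates 1 and 2.

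The gap between mammary replicates was large in 3 of the 4 genes when set beside all tested rows. From mammary replicate 1 to replicate 2 the median tested row differed by -1.05 in log2(FPKM + 1), with quartiles of -1.43 and -0.64. On the same scale FABP3 was higher in mammary replicate 2 by 6.60, LPL by 4.84, CD36 by 2.83 and FABP4 by 0.09. Only 7 of the 12311 rows had a larger difference in that direction than FABP3, 19 had a larger difference than LPL and 51 a larger difference than CD36, while 714 (5.80%) exceeded FABP4. In lymphocytes, where the median row was higher in replicate 2 by 0.40, FABP3 was higher by 1.11 and LPL by 1.02, and 4.95% and 6.38% of the rows had a larger difference. CD36, at -0.01, and FABP4, at 0 in both, could hardly show a shift there, as their lymphocyte values were near 0 on this scale. The labels name nothing that separates the mammary libraries, and 2 libraries cannot show which of them is typical of the tissue. The part of lactation stage, of the makeup of the tissue sampled or of library preparation in this gap was not tested.

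**Figure D4:**
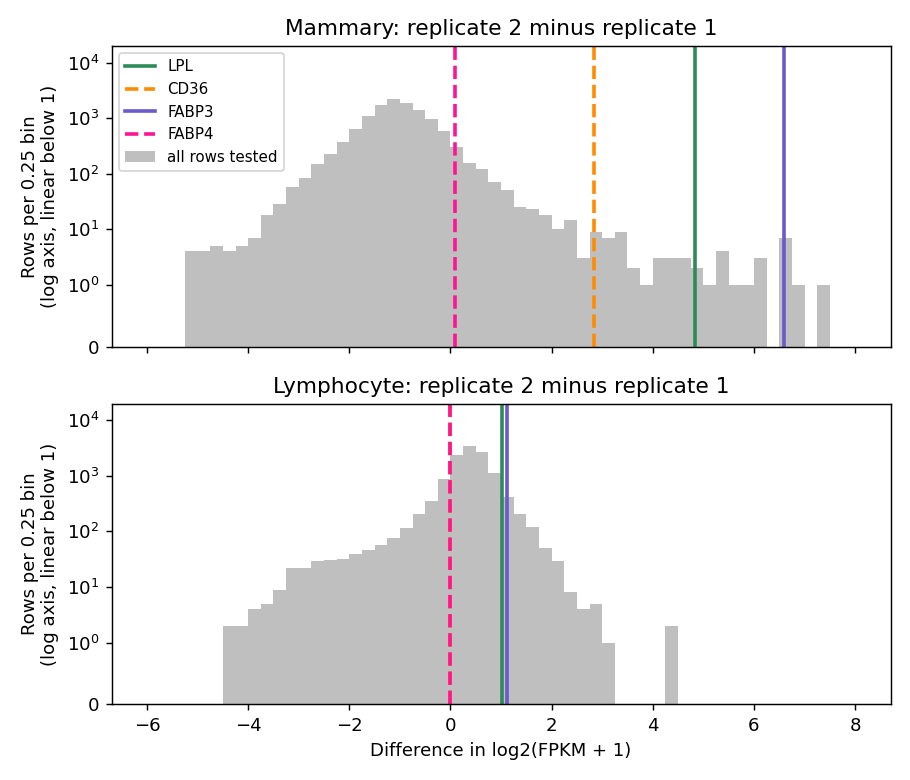
Number of tested rows by their difference between replicates, replicate 2 minus replicate 1, in log2(FPKM + 1), for mammary tissue above and lymphocytes below; the vertical axis is logarithmic and linear below 1, and vertical lines mark LPL, CD36, FABP3 and FABP4. FABP3 at 6.60 and LPL at 4.84 lie in the far right tail of the mammary rows, and in the lower panel the CD36 line at -0.01 is hidden by the FABP4 line at 0.

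Likeness of pattern was measured as the Euclidean distance between genes over the 4 libraries, with each gene's log2(FPKM + 1) centred on its own mean. It describes these libraries only. CD36 lay 1.94 from FABP4 and 2.13 from LPL, with 9 and 11 other tested rows nearer to it. LPL lay 3.32 from FABP3. FABP3 and FABP4, members of the same protein family, were the least alike of the 6 pairs, at 6.46, with 5741 rows nearer to FABP3 than FABP4 was. The row nearest to CD36 was ENSBTAG00000019798, at a distance of 0.42, with 42.3 and 363.6 FPKM in mammary replicates 1 and 2 and 0.081 and 0.11 FPKM in lymphocyte replicates 1 and 2. The row nearest to FABP4 was ENSBTAG00000017150, at 0.68, with 92.0 and 88.9 FPKM in mammary replicates 1 and 2 and 0 in both lymphocyte libraries. Neither row is paired with a gene name here.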

How the data were processed

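RNA of 2 mammary and 2 lymphocyte libraries was sequenced as read pairs of 150 bases, per the labels. The deposited table gives 1 FPKM per Ensembl gene identifier and library, made by the authors. The submitters' processing notes name Trimmomatic 0.39, STAR, Cufflinks and the assembly UMD3.1. Their settings, the annotation release, and the treatment of strand and of reads with several matches are not given in these sources. Columns were matched to samples by title, and 0 were left unmapped. Depth is unknown, so no interval or detection limit is given.

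The 4 members and all lists were chosen with earlier results of these data known. Gene symbols of the members came with that choice. Pathway and cell type lists could not be matched to rows (0 identifiers matched among 37063 RefSeq genes) and were not tested. No sequences or coordinates are given. Beyond the members, the rule named the row of most similar pattern for each member, and at most 2 of these are printed.

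Values were tested as log2(FPKM + 1) with limma 3.58.1 in R 4.3.3 (two-sided, mean-variance trend, Benjamini-Hochberg, threshold 0.05), on rows that reached 1 FPKM in 2 or more libraries, with tissue as the sole term. The prior degrees of freedom were infinite, so a gene's own spread did not enter. After median-of-ratios scaling they were 2.27. The routine was also run on simulated data. These were drawn with the spread that the fit itself gave each row, so they do not test that spread. Each p-value reflects only how far these libraries differ, and that may be technical. Replicate numbers follow accession order and pair nothing.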

Additional observations from a re-analysis of the deposited data

How the results depend on the processing

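Over the 16 alternatives run, LPL, CD36 and FABP4 were higher in mammary tissue each time, and FABP3 in 14. CD36 passed in 13, FABP4 in 14, LPL in 9 and FABP3 in 7. Pseudocounts of 0.1 and 5, a filter at 5 FPKM, a common FPKM total and a fit without the trend kept all 4 genes past the threshold. In these fits a gene's own spread again did not enter, so they do not show whether a call holds against it. The size of the difference followed the pseudocount for 3 of the genes. With 0.1 and 5 it was 10.5 and 4.90 for FABP4, 10.3 and 4.97 for CD36, and 7.03 and 4.22 for LPL. For FABP3 it was 2.74 and 2.66. With no filter, where own spread did enter, LPL (5.80, limma adjusted p = 0.11), CD36 (7.22, 0.089) and FABP3 (2.73, 0.40) missed the threshold. Median-of-ratios scaling and quantile normalization, where it entered as well, lost LPL (6.58 and 6.26) and FABP3 (3.79 and 3.16). Leaving out each library gave 3.38 to 8.22 for LPL, 5.80 to 8.63 for CD36, -0.57 to 6.03 for FABP3 and 7.14 to 7.23 for FABP4. FABP3 turned negative without mammary replicate 2, at -0.57, and at -0.20 with median-of-ratios scaling as well.

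With median-of-ratios scaling and a library left out, values ran from 3.48 to 9.69 for LPL, 5.68 to 9.88 for CD36, -0.20 to 7.77 for FABP3 and 7.01 to 8.47 for FABP4. In those fits no gene passed without lymphocyte replicate 1 (LPL 6.25, CD36 7.78, FABP3 3.45, FABP4 7.74) or 2 (6.92, 7.77, 4.13 and 7.74). There limma called 0 rows of all tested, although 2820 and 2967 had an unadjusted p below 0.05; the spread then came from the mammary replicates alone. LPL missed the threshold without mammary replicate 2 (3.48).

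Calls numbered 1051 in the mammary direction and 1312 in the lymphocyte direction. With no filter these were 4 and 1, and at 5 FPKM 383 were higher in mammary tissue. Median-of-ratios scaling turned the majority, to 1570 and 957. A common FPKM total called 5644 higher in lymphocytes. Leaving out a library gave 37 to 1187 and 58 to 2754, and with median-of-ratios scaling 0 to 1820 and 0 to 729 (245 of the latter without mammary replicate 2). Quantile normalization kept the lymphocyte majority, with 1353 calls in the mammary direction and 1737 in the lymphocyte direction. The mammary share of all calls thus depends on the scaling and on which libraries enter the fit. The cause of these changes was not tested. No paired analysis was possible, because no label pairs a mammary with a lymphocyte library and the tissues are labelled with different sexes. How depth limits the low values is unknown.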
